A study of Mus musculus with 12 samples.

Results

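The 8 genes described here are Atf4 and 7 genes known as targets of the transcription factor it encodes, Ddit3, Atf3, Asns, Trib3, Chac1, Ppp1r15a and Psat1. They were chosen by symbol, with earlier results of these data known, and all 8 were rows of the 24552 symbols in the count table. Reads were counted for 6 of them in at least 1 library, and 2, Ddit3 and Atf3, had enough reads to be tested among 2356 genes. The RNA is from macrophages that were differentiated from mouse bone marrow with M-CSF, a growth factor for this lineage, used at 10 ng/ml for 6 days. M0 and M1 cells were each given vehicle or ISRIB, which makes 4 groups of 3 libraries. Vehicle was DMSO, and ISRIB was given at 50 nM from 1 h before stimulation. M1 cells received LPS at 10 ng/ml with IFN-γ at 25 ng/ml for 16 h, and M0 is the usual name of unpolarized cells. What M0 cells received during those hours, and the strain, sex and age of the mice, are not given in the sources used here. The titles call the replicates biological, but nothing says which came from separate animals or cultures. A p-value therefore sets a difference between groups against the spread between these libraries only.

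The integrated stress response begins when stress-activated kinases phosphorylate the translation factor eIF2, which slows its exchange factor eIF2B and lowers general protein synthesis. The mRNA of Atf4 is translated better under that condition, and ATF4 protein then switches on genes of amino acid supply, further transcription factors and feedback regulators. ISRIB binds eIF2B and keeps it active, so it blocks the steps after eIF2 phosphorylation. Since ATF4 is controlled largely at translation, the mRNA of its targets is the usual readout of the pathway in RNA data. In macrophages the response is studied for its links to cytokine production.

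ATF4 acts with C/EBP partners at a DNA element whose core is TGATGNAA. All 8 genes had a RefSeq promoter window on GRCm38.p6, 250 bases before to 50 after the gene's start, and 9 windows were searched on both strands. The motif was found for 4 of the 8 genes (Atf3, Asns, Trib3 and Chac1), against 4.51% of the 27025 genes with a window and 3.97% of the 32851 windows. The windows of Atf4, Ddit3, Ppp1r15a and Psat1 had no match. Since the members were chosen as Atf4 and known targets of ATF4, this share is not a test of the motif. The matches are shown because they are what these 4 members share in sequence, with the motif in capitals on the strand of the gene. In Atf3, Trib3 and Chac1 the match is on the other strand and so is printed as the reverse complement.
Atf3, chr1:191183410-191183469, minus strand: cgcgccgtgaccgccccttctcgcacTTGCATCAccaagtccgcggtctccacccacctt
Asns, chr6:7693214-7693243, minus strand: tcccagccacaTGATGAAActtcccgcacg
Trib3, chr2:152344028-152344057, minus strand: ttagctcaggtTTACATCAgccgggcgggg
Chac1, chr2:119351023-119351082, plus strand: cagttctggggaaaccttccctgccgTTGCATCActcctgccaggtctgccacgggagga
Positions are counted from the RefSeq transcript start of each window, which need not be the outer end of the GENCODE gene given further on. These starts are base 191183333 for Atf3, 7693209 for Asns, 152344060 for Trib3 and 119351242 for Chac1. The first base of the match was at -110 in Atf3, -23 in Asns, -193 in Chac1 and 15 in Trib3. The cyclic AMP response element TGACGTCA, a palindrome that ATF-family proteins also bind, was found once, at -12 in Ppp1r15a, and in 2.03% of all genes with a window. These are matches of letters, and no binding was measured.

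The members had few reads, in libraries that themselves held 439976 to 514037 counts. Levels are given as CPM, the count scaled to library size with the TMM normalization, and 1 count was worth 1.79 to 2.57 CPM. The 8 members together held 722 reads over the 12 libraries, of which Ddit3 made up 66.1% and Atf3 25.3%. Of the 24030 symbols matched to the GENCODE M21 annotation of GRCm38, the 24.1% with an exon overlapping an exon on the opposite strand held 91.2% to 93.1% of a library's matched counts. The libraries were strand-specific, and the strand setting of the counting is not given in the sources used here. If reads were assigned to the strand opposite to that of the gene, the count of a gene with such an overlap would come from its neighbour, and a gene without one would read near 0 whatever its expression. This was not settled here, so every level and fold change below is that of the reads assigned to a symbol. Ddit3 and Ppp1r15a are in that class, and Atf4, Atf3, Asns, Trib3, Chac1 and Psat1 have no exon overlap with another annotated gene. Of 10 macrophage markers, 7 or 8 had reads in all 3 libraries of a group. With vehicle they summed to 265 to 467 counts per library in M0 and 112 to 266 in M1. With ISRIB the sums were 221 to 362 in M0 and 194 to 275 in M1. Single markers moved between M0 and M1 in either direction. With vehicle Lyz2 summed to 845 counts over the M0 libraries and 132 over the M1 libraries, and Fcgr1 to 6 and 80. Neutrophil and lymphocyte lists of 6 genes each summed to at most 4, and all 6 fibroblast genes were at 0. Among 6 dendritic cell genes Flt3, Zbtb46 and Cd209a were at 0, while Xcr1 had 325 to 434 counts in M1 and 6 to 19 in M0 libraries and Clec9a 10 to 47 in M0 and 0 in M1. This list therefore moved with the M0 to M1 comparison (summed counts of 20 to 66 in M0 and 325 to 434 in M1), and its part in the results on M1 below was not tested. In bulk RNA, fewer cells of a type and less RNA per cell cannot be told apart.

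Per kilobase of exon, a scale that allows for gene length, the reads assigned to Ddit3 ranked highest among the members. With the strand setting unknown, this order of assigned reads need not be the order of the transcripts. Ddit3 stood at 49.1 ± 9.53 CPM per kb (SD, n = 12) with a range of 37.9 to 64.3. Atf3 followed at 16.0 ± 10.7 CPM per kb with a range of 0.941 to 32.4, so the levels of these genes did not overlap in any library. The medians over 12 libraries were 46.4 for Ddit3, 11.9 for Atf3, 0.386 for Atf4 and 0 for the other 5. Atf4 reached at most 8.50 CPM per kb, Psat1 4.4, Ppp1r15a 3.66 and Asns 3.28, and these low ranges overlapped one another. Trib3 and Chac1 had no reads in any library, and a count of 0 over the 3 libraries of a group allows up to 3 counts.

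Ddit3 encodes CHOP, a C/EBP-family factor that promotes cell death when stress persists. It lies on chromosome 10 at 127290774-127296288, plus strand, and showed no M1 or ISRIB effect beyond the spread between replicates. With vehicle, its counts in replicates 1, 2 and 3 were 59, 48 and 38 in M0 and 44, 27 and 29 in M1. With ISRIB they were 49, 52 and 36 in M0 and 26, 34 and 35 in M1. On the authors' log2 scale these were 4.98 to 5.79 over the 12 libraries, and the 4 groups overlapped. Scaled levels with vehicle were 90.7 ± 16.7 CPM (SD, n = 3) in M0 and 83.1 ± 23.5 in M1. With ISRIB they were 88.0 ± 18.2 in M0 and 74.4 ± 8.64 in M1. The log2 fold change of M1 against M0 was -0.13 ± 0.33 (SE) in vehicle and -0.24 ± 0.33 in ISRIB, with edgeR adjusted p-values of 0.776 and 0.589. The last 68 bases of the annotated exons of Ddit3 (127296221-127296288) are shared with the opposite-strand gene Mars, whose 3' end meets that of Ddit3. Near its start Ddit3 shares 13 exonic bases (127290776-127290788) with Gm4189, also on the opposite strand, which is not among the counted symbols.

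Mars encodes methionyl-tRNA synthetase, which loads methionine onto its tRNA and belongs to an enzyme family with several ATF4 targets. Its counts in replicates 1, 2 and 3 were 61, 54 and 24 in vehicle M0 and 107, 98 and 133 in vehicle M1. In the presence of ISRIB they were 20, 38 and 47 in M0 and 109, 109 and 90 in M1. Every M1 library lay above every M0 library, and Mars rose by 1.69 ± 0.29 (SE) on the log2 scale in vehicle and by 1.86 ± 0.30 in ISRIB (edgeR adjusted p = 2.78e-05 and 1.13e-05). Ddit3 and Mars therefore did not move together over the 12 libraries, at r = -0.34 (Pearson) and rho = -0.34 (Spearman), given as a description of libraries that share groups and depth. From these counts it cannot be told from which gene the reads assigned to either symbol came.

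**Figure D1:**
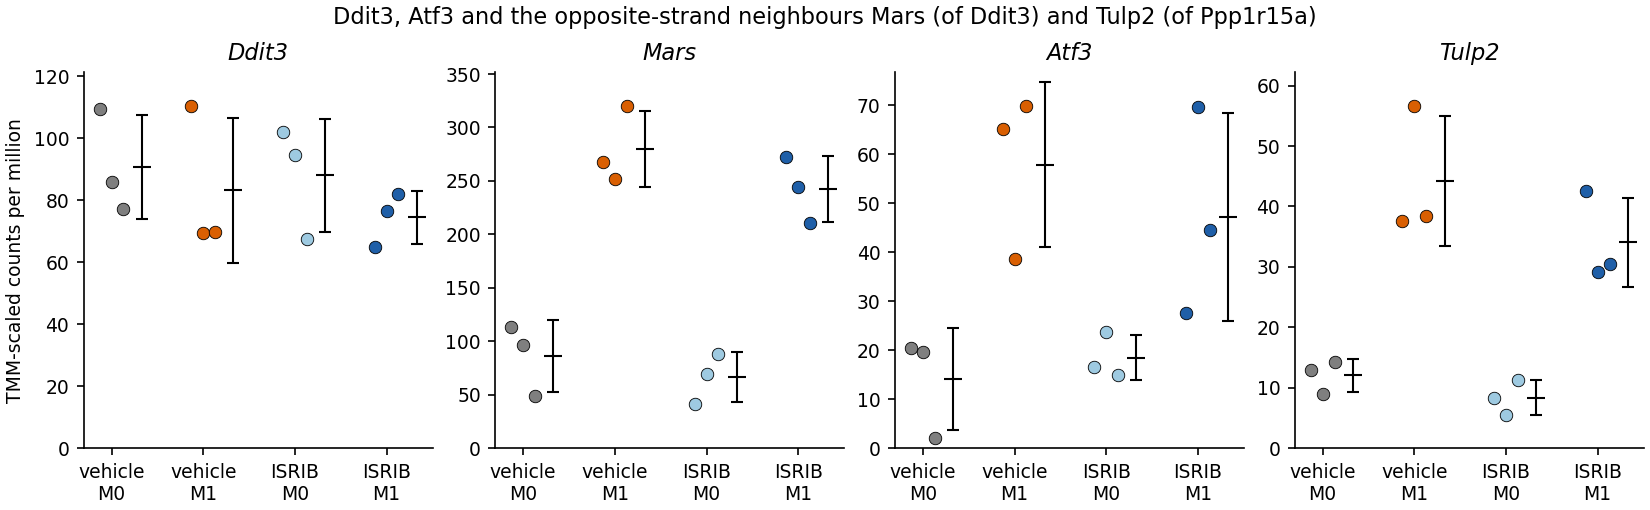
TMM-scaled level in CPM (vertical axis, linear from 0, with its own range in each panel) of Ddit3, its opposite-strand neighbour Mars, Atf3, and Tulp2, the opposite-strand neighbour of Ppp1r15a, in the 4 groups. Points are replicates 1 to 3 from left to right and bars are the mean ± SD (n = 3). The groups overlap for Ddit3, and all M1 libraries lie above all M0 libraries for Mars, Atf3 and Tulp2.

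Atf3 was the only member called between M1 and M0 cells, and only in vehicle. It encodes a bZIP factor that is induced early by many stresses and by Toll-like receptor signals and restrains inflammatory transcription, and it lies on chromosome 1 at 191170296-191218039, minus strand. Counts in replicates 1, 2 and 3 with vehicle were 11, 11 and 1 in M0 and 26, 15 and 29 in M1. With ISRIB they were 8, 13 and 8 in M0 and 11, 31 and 19 in M1. Scaled levels with vehicle were 14.0 ± 10.4 CPM (SD, n = 3) in M0 and 57.8 ± 16.8 in M1, and with ISRIB 18.4 ± 4.60 in M0 and 47.2 ± 21.2 in M1. On this scale M0 and M1 did not overlap within either treatment. The lowest vehicle M0 library, replicate 3, had 2.03 CPM, and the other vehicle M0 libraries had 20.4 and 19.7. The log2 fold change was 2.01 ± 0.63 (SE) in vehicle (edgeR adjusted p = 0.0109) and 1.35 ± 0.61 in ISRIB (edgeR adjusted p = 0.0779). Of all tested genes 44.8% were called in vehicle, 24.3% as higher, and 44.8% in ISRIB, 23.9% as higher, so 1 of 2 tested members in vehicle and 0 of 2 in ISRIB are read against those shares. In ISRIB the unadjusted edgeR p of 1 of the 2 members, Atf3, was under 0.05, at 0.0380, as for 1192 of the 2356 tested genes. DESeq2 and limma called neither member in that comparison, against 1067 and 1091 genes of the whole table.

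The difference between those polarization effects was itself tested and did not pass. For Atf3 the ISRIB effect in M1 minus that in M0 was -0.66 ± 0.87 (SE) on the log2 scale with a 95% interval of -2.46 to 1.14, and edgeR's adjusted p was 0.960. For Ddit3 it was -0.11 ± 0.47 with an interval of -1.08 to 0.86 (edgeR adjusted p = 0.988). Without replicate 3 of vehicle M0, the Atf3 increase in vehicle was 1.53 (edgeR adjusted p = 0.0460). With every count halved and rounded up, an alternative chosen after the data were seen, Atf3 also passed in ISRIB, at 1.38 and an edgeR adjusted p of 0.0378.

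Among the 836 genes that averaged 50 or more counts, those whose log2 levels followed Atf3 most closely over the 12 libraries were B2m (Pearson r = 0.935, Spearman rho = 0.811), Fyco1 (r = 0.908, rho = 0.846) and Tsr1 (r = 0.903, rho = 0.846). The same ranking for Ddit3 gave Lnx1 (r = 0.823, rho = 0.748), Cela2a (r = 0.746, rho = 0.720) and Gm15787 (r = 0.735, rho = 0.699). Ddit3 and Atf3 themselves had an r of 0.01 and a rho of -0.06. These values describe 12 libraries that share the M0 and M1 groups, and the largest of many correlations were picked.

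The feedback gene Ppp1r15a encodes GADD34, the subunit that brings a phosphatase to eIF2 and ends the response. It lies on chromosome 7 at 45522916-45526268, minus strand. It had 0, 6 and 4 counts in vehicle M0 and 4, 0 and 0 in vehicle M1, and no reads in the 6 ISRIB libraries. Over both states the 14 vehicle counts came from 3 of 6 libraries. The exact 95% interval of the ISRIB to vehicle ratio of these sums ran from 0 to 0.297, and to 0.684 with counts halved, for counting error only. In the fit without a filter on low counts, the unadjusted p over both states was 0.0139 and edgeR's adjusted p over 10978 genes was 1.0, so the difference did not pass.

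Tulp2, a gene of the Tubby-like family on the plus strand, shares 12 exonic bases (45522916-45522927) with the 3' end of Ppp1r15a, and the gene bodies overlap by 717 bases. With vehicle its counts were 7, 5 and 7 in M0 and 15, 22 and 16 in M1, and with ISRIB 4, 3 and 6 in M0 and 17, 13 and 13 in M1, with no M1 library as low as an M0 library. Tulp2 rose by 1.86 ± 0.64 (SE) on the log2 scale in vehicle M1 and by 2.00 ± 0.67 in ISRIB M1 (edgeR adjusted p = 0.0197 and 0.0173). Neither call was kept in the fit without a filter on low counts (edgeR adjusted p = 0.155 and 0.127). Leaving out replicate 2 of vehicle M0 or of vehicle M1 gave 0.0588 and 0.0775 in vehicle, and leaving out replicate 2 of ISRIB M0 or replicate 1 of ISRIB M1 gave 0.0659 and 0.0590 in ISRIB. Mars and Tulp2, the counted opposite-strand neighbours of members, were thus higher in M1 in the main fit. Of the members they overlap, Ddit3 was tested and not called, and Ppp1r15a was below the filter and could not be called in that fit.

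Few reads were assigned to Atf4 itself, which with the strand setting unknown need not give the level of its transcript. Atf4, on chromosome 15 at 80255184-80257541 on the plus strand, had 5, 4 and 0 counts in M0 and 8, 0 and 6 in M1 with vehicle. With ISRIB it had 2, 1 and 0 in M0 and 0 in each M1 library. Vehicle libraries summed to 23 and ISRIB libraries to 3, but 2 of the 6 vehicle libraries were also at 0, so the arms overlapped. The ISRIB to vehicle ratio was 0.129 with an exact 95% interval of 0.0247 to 0.426, or 0.164 (0.0179 to 0.738) with counts halved. In M1 alone, with 14 vehicle counts against 0, the exact 95% interval of the ratio ran from 0 to 0.285, and to 0.657 with counts halved. In the fit without a filter, edgeR's unadjusted p was 0.0124 in M1, 0.418 in M0 and 0.0126 over both states, with adjusted p-values of 0.820, 0.925 and 1.0, so no comparison passed.

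The amino acid enzymes were sparser still. Asns, which makes asparagine (chromosome 6, 7675169-7693254, minus strand), had reads in 2 libraries, 2 and 4 counts in replicates 1 and 2 of ISRIB M1, and 0 in the other 10. Psat1, an enzyme of serine synthesis (chromosome 19, 15904678-15947337, minus strand), had 2, 0 and 0 counts in M0 and 2, 0 and 2 in M1 with vehicle. With ISRIB it had 0 in each M0 library and 0, 2 and 8 in M1. The single largest value, 8 counts in replicate 3 of ISRIB M1, makes up 8 of its 10 counts there. Psat1 had an unadjusted p of 0.0343 for M1 against M0 in ISRIB and an edgeR adjusted p of 0.239 in the fit without a filter, where 8.96% of 10978 genes were called in that contrast (4.89% higher and 4.07% lower) and 9.23% in vehicle (5.07% higher and 4.15% lower). That fit called 0% of genes for ISRIB in M1, 0.0911% in M0 and 0.0182% over both states, all of them higher, and 0.082% for the interaction, all lower. None of the 4 members with reads below the filter was called in any of its 6 contrasts. Trib3, a pseudokinase that feeds back on ATF4 and CHOP (chromosome 2, 152337422-152344032, minus strand), and Chac1, an enzyme that degrades glutathione (chromosome 2, 119351229-119354381, plus strand), were at 0 throughout.

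**Figure D2:**
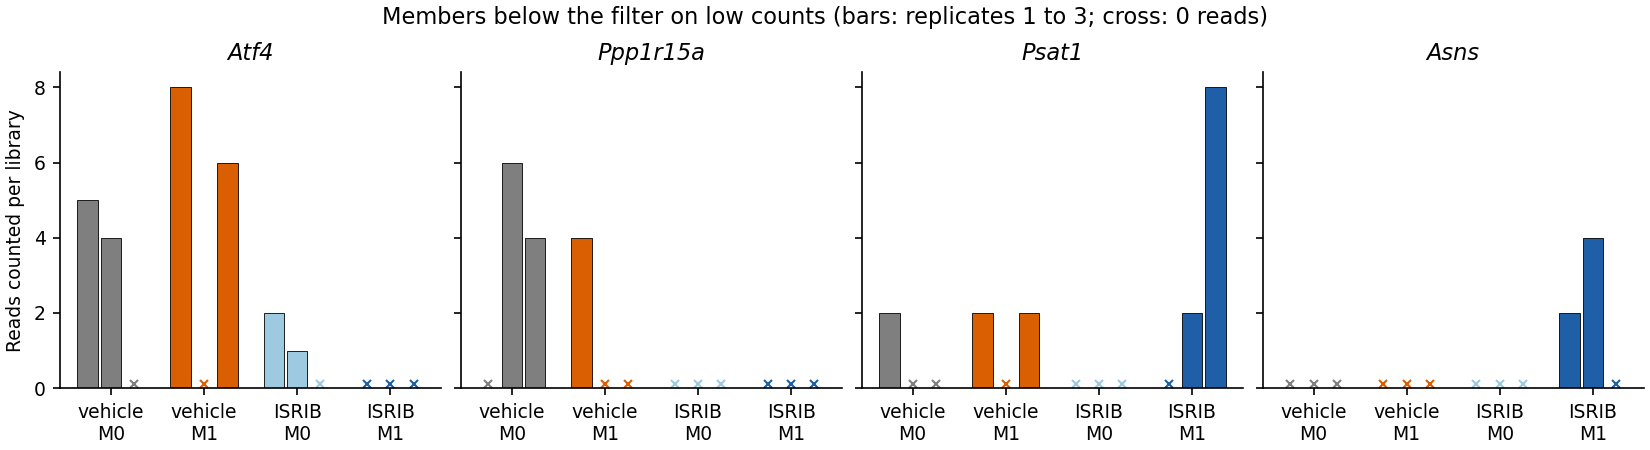
Reads counted per library (vertical axis, linear from 0, shared by the panels) for Atf4, Ppp1r15a, Psat1 and Asns. Bars are replicates 1 to 3 of each group and a cross marks 0 reads. The highest bar is 8 reads, Atf4 and Ppp1r15a have most of their reads in vehicle libraries, and Asns has reads in ISRIB M1 libraries only.

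The small counts were mostly even numbers. Of the 16 nonzero values of the members below the filter 14 were even, and 66.3% of all counts from 1 to 10 in the libraries were even. How read pairs were counted is not given in the sources used here, and intervals on counts as deposited are too narrow if a pair counted as 2 reads. For that reason values with counts halved and rounded up are given beside the intervals of Atf4 and Ppp1r15a above.

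Pooling the members gave 1 value per library with more reads behind it. With vehicle the summed count of the 8 members was 77, 69 and 43 in M0 and 84, 42 and 66 in M1. With ISRIB it was 59, 66 and 44 in M0 and 39, 71 and 62 in M1, and these sums were 0.00832% to 0.0180% of a library. The groups overlapped throughout, with the highest and the second lowest value both in vehicle M1. Scaled, the pool with vehicle stood at 117.8 ± 28.2 CPM (SD, n = 3) in M0 and 159.0 ± 51.2 in M1, and with ISRIB at 108.4 ± 22.5 in M0 and 134.0 ± 32.4 in M1. On the log2 scale M1 exceeded M0 by 0.41 ± 0.32 (SE) in vehicle and by 0.30 ± 0.32 in ISRIB. Both 95% intervals included 0, at -0.33 to 1.15 in vehicle and -0.44 to 1.04 in ISRIB.

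The make-up of the pool differed between the states. Ddit3 gave 38 to 59 of the pooled counts in vehicle M0 libraries and Atf3 1 to 11, while in vehicle M1 Ddit3 gave 27 to 44 and Atf3 15 to 29. Without Ddit3 the M1 minus M0 difference was 1.59 ± 0.62 (SE) in vehicle and 1.47 ± 0.62 in ISRIB. Most of the reads left were those of Atf3, so this largely repeats the Atf3 result. Vehicle M0 replicate 3 then held 1 read of Atf3 and 4 of the other 6 members. No p-value is given for the pool, since its members were chosen with results known.

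**Figure D3:**
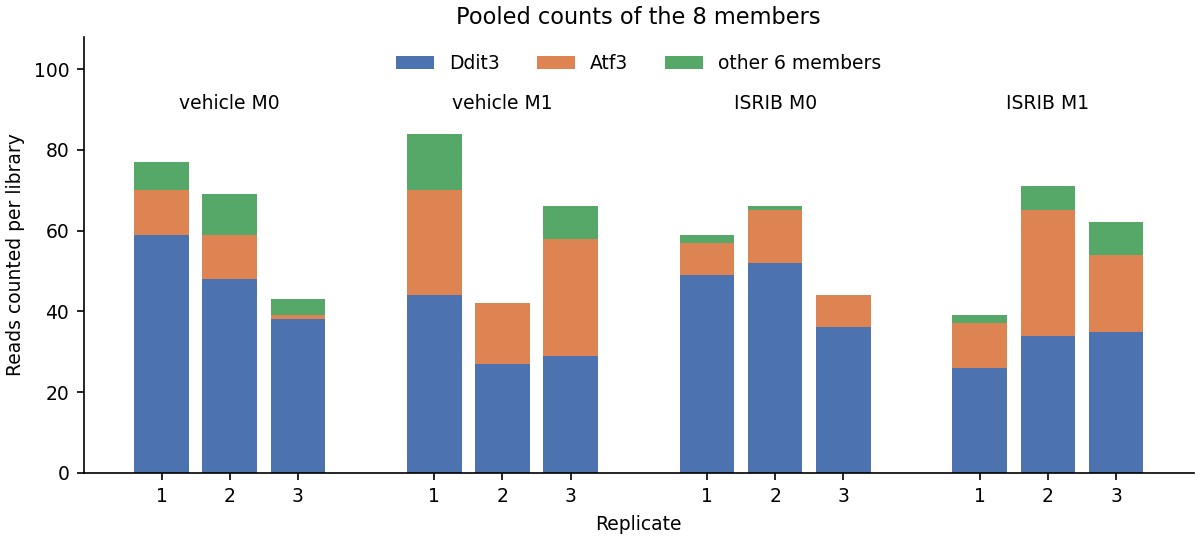
Reads counted per library (vertical axis, linear from 0) for the 8 members together, stacked as Ddit3, Atf3 and the other 6 members, for replicates 1 to 3 (horizontal axis) of each group. Totals run from 39 to 84 reads, Ddit3 is the larger part in most libraries, and Atf3 takes a larger part in M1 than in M0.

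ISRIB against vehicle gave no call for a member in either state. Of the 2 tested members, 0 passed in M1, 0 in M0 and 0 over both states, as for 0% of all 2356 genes in each. An unadjusted edgeR p under 0.05 was found for 0 members, against 134, 143 and 146 of the 2356 genes in the same order. DESeq2 and limma also called 0 members, and DESeq2 called 3 genes of the whole table in M0 and 0 in M1. The log2 fold change of Ddit3 was -0.16 ± 0.34 (SE) in M1, -0.05 ± 0.33 in M0 and -0.10 ± 0.24 over both states, with 95% intervals of -0.86 to 0.54, -0.72 to 0.62 and -0.59 to 0.38. For Atf3 it was -0.29 ± 0.58 in M1, 0.37 ± 0.65 in M0 and 0.04 ± 0.42 over both states, with intervals of -1.48 to 0.91, -0.97 to 1.72 and -0.82 to 0.91. Both are within 1 standard error of 0 in each comparison. The pool was lower with ISRIB by 0.23 ± 0.32 in M1, by 0.11 ± 0.32 in M0 and by 0.17 ± 0.23 over both states, all within the standard error, and the interval over both states ran from a ratio of 0.620 to 1.28. With only the 6 members free of exon overlap the direction turned in M0 (0.71 ± 1.02, higher with ISRIB) and over both states (0.21 ± 0.72), again within the standard error, and vehicle M0 replicate 3 then held a single read.

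The change under ISRIB that these libraries could have shown was computed for the reads assigned to the members. The detectable change is the smallest one that a two-sided test at 0.05 would find in 80% of such experiments, computed from the standard error. For the pooled counts it was 2.03-fold within M1 or within M0, which for a decrease means a fall to 49.3% of vehicle. Over both states it was 1.65-fold, or a fall to 60.6%. Reads of Ddit3 made up 66.1% of the pool. Without Ddit3, and with only the members free of exon overlap, the detectable change was larger, as given in the closing section. For Ddit3 it was 1.99-fold in M1, 1.93-fold in M0 and 1.61-fold over both states, and for Atf3 3.22-fold, 3.75-fold and 2.33-fold. A gene that had to pass as the only call among 2356 would have needed more, namely 4.19-fold in M1 and 3.94-fold in M0 for Ddit3 and 11.4-fold and 15.7-fold for Atf3. The median tested gene needed 2.80-fold in M1 and 2.66-fold in M0 for the unadjusted test.

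For the members below the filter, a bound was computed from counting error alone. It includes neither the spread between replicates nor a power requirement, so its folds cannot be compared with the detectable changes above. The 14 vehicle M1 counts of Atf4 would have had to fall to 5 or fewer, or rise to 29, before the exact 95% interval of the ratio left 1, which is a 2.96-fold fall or a 1.96-fold rise. With counts halved it would have taken a fall to 0 or a 2.57-fold rise. The Atf4 count in ISRIB M1 was 0, which reached the bound for a fall on both scales, but replicate 2 of vehicle M1 also had 0. The 10 vehicle M0 counts of Ppp1r15a would have had to fall to 2 or rise to 22, and with counts halved no fall could have been seen and a rise would have had to be 3.05-fold. The Ppp1r15a count in ISRIB M0 was 0, past the bound for counts as deposited only. In the fit without a filter neither Atf4 in M1 nor Ppp1r15a in M0 passed (edgeR adjusted p = 0.820 and 0.813). For Psat1, with 4 counts in vehicle M1, no fall could have been seen and a rise would have needed 14 counts, or 3.31-fold (4.73-fold with counts halved). For Asns, Trib3 and Chac1, with 0 vehicle counts, no fall could have been seen in either state, and a rise would have needed 6 counts in the 3 ISRIB libraries. Asns reached exactly those 6 counts in ISRIB M1, in 2 of 3 libraries, and with counts halved they are 3 and within the bound.

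**Figure D4:**
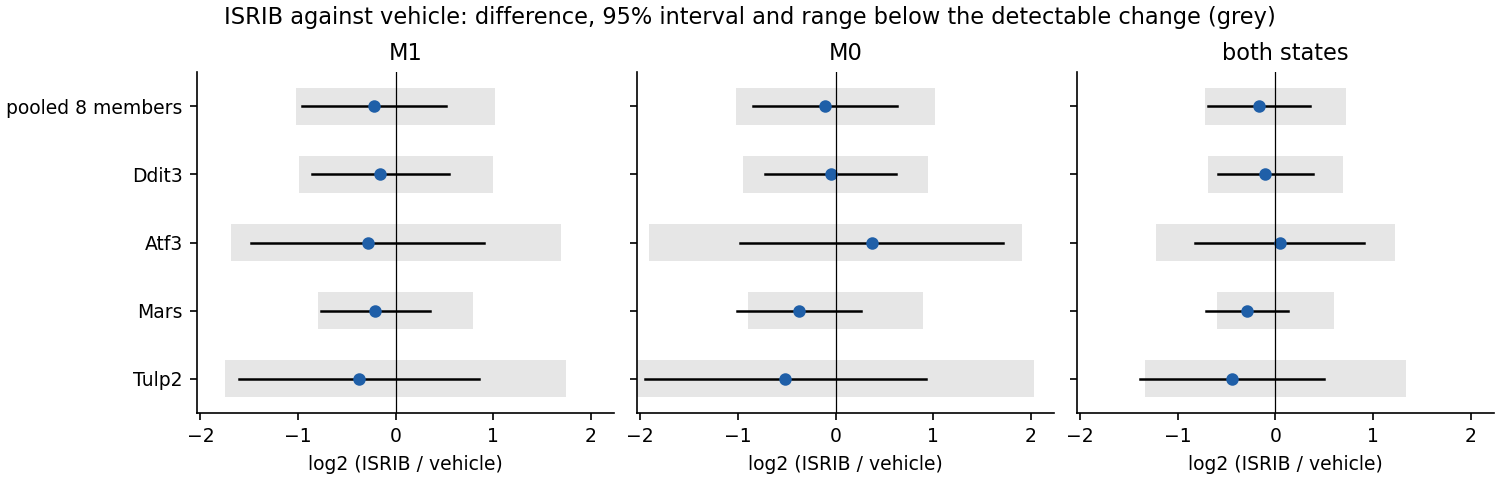
Log2 ratio of ISRIB to vehicle (horizontal axis) in M1, in M0 and over both states for the pooled members, Ddit3, Atf3, Mars and Tulp2. Points are the differences, lines their 95% intervals, and grey bars the range of changes smaller than the detectable change (80% power, two-sided 0.05). All points lie inside the grey bars and all intervals include 0.

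Other genes of the pathway were read from a list of 40 further ATF4 targets and regulators, and 27 of them had reads in at least 1 library. The 9 that passed the filter were Slc3a2, Psph, Atf5, Cebpb, Cebpg, Xpot, Gadd45a, Sqstm1 and Ppp1r15b. In vehicle M1 against M0, 2 of the 9 rose and 1 fell, against 24.3% and 20.5% of all tested genes, and the median log2 fold change was 0.35 against 0.01. In ISRIB 2 rose and 2 fell, against 23.9% and 20.9%, with medians of 0.86 and -0.01. Ppp1r15b, the constitutive partner of the same eIF2 phosphatase that Ppp1r15a serves, rose by 2.83 ± 0.63 (SE) in vehicle and 3.57 ± 0.69 in ISRIB (edgeR adjusted p = 0.000620 and 0.000136). With vehicle its M0 level was 12.3 ± 11.3 CPM (SD, n = 3) and its M1 level 90.1 ± 18.1. The increase was 3.92 without replicate 2 of vehicle M0 and 4.35 without replicate 1 of ISRIB M0, on the log2 scale. Ppp1r15b shares 640 exonic bases with the opposite-strand gene Gm26616, which was not analysed here.

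Xpot, the exporter of tRNA from the nucleus, rose by 2.70 ± 0.77 (SE) in vehicle and 1.96 ± 0.67 in ISRIB (edgeR adjusted p = 0.00553 and 0.0202). In ISRIB its call was lost without replicate 1 or 3 of ISRIB M0 or replicate 3 of ISRIB M1, where edgeR's adjusted p was 0.0581, 0.0828 and 0.0799, and at 0.0507 without a filter. The increase of Xpot was 3.63 without replicate 1 of vehicle M0 and 2.68 without replicate 2 of ISRIB M0. Cebpg, a bZIP partner of ATF4, fell in both treatments, with vehicle levels of 62.1 ± 23.6 CPM (SD, n = 3) in M0 and 6.41 ± 11.1 in M1, where all 8 counts came from 1 library. The log2 fold change was -3.19 ± 0.83 in vehicle and -3.89 ± 0.89 in ISRIB (edgeR adjusted p = 0.00273 and 0.000836). It was -7.88 without replicate 3 of vehicle M1, the library with those 8 counts, and -5.48 without replicate 1 of ISRIB M1. Gadd45a, a growth arrest gene, fell in ISRIB by 2.65 ± 1.08 on the log2 scale at an edgeR adjusted p of 0.0491, which was 0.0673 with the replicate number as a block, where 23.4% of all genes were called higher and 20.2% lower, and over 0.05 without any single library of the contrast (0.0732 to 0.122). In vehicle its change was -2.44 ± 1.09 and did not pass (edgeR adjusted p = 0.0714), but it passed without replicate 2 of vehicle M1 (0.00701) and in limma (0.00945). The opposite-strand gene E230016M11Rik shares 337 exonic bases with Gadd45a and had 58 to 274 counts per library.

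The other 5 did not pass in either treatment. Atf5, a factor translated under the same control as Atf4, was the best counted of the list at 313 ± 91.0 CPM (SD, n = 3) in M0 and 268 ± 5.16 in M1 with vehicle, a log2 fold change of -0.22 ± 0.21. The remaining log2 fold changes in vehicle were 1.27 for the C/EBP factor Cebpb, 0.75 for the amino acid transporter chain Slc3a2, 0.35 for the autophagy receptor Sqstm1 and -0.10 for the serine synthesis enzyme Psph. Without replicate 1 of vehicle M0, Slc3a2 passed at 1.99 (edgeR adjusted p = 0.0397). Under ISRIB against vehicle 0 of the 9 passed in M1, in M0 or over both states, with medians of -0.09, 0.02 and -0.06 against 0.00, 0 and 0.01 for all genes. Over both states 2 of the 9 had an unadjusted edgeR p under 0.05, against 146 of all 2356 tested genes. They were Sqstm1 at 0.00948 and Xpot at 0.0344, both higher with ISRIB (1.31 ± 0.47 and 1.14 ± 0.51 on the log2 scale). Their edgeR adjusted p-values were 0.634 and 0.794. Sqstm1 shares 580 exonic bases with the opposite-strand gene Mrnip. Atf5 shares 82 with each of the opposite-strand genes Nup62 and Il4i1, and Psph shares 452 with Cct6a. Cebpb shares 312 with Tmem189 and Cebpg 4 with Gm45095, again on the opposite strand. Of the list genes past the filter, only Slc3a2 and Xpot have no exon overlap with another annotated gene.

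**Figure D5:**
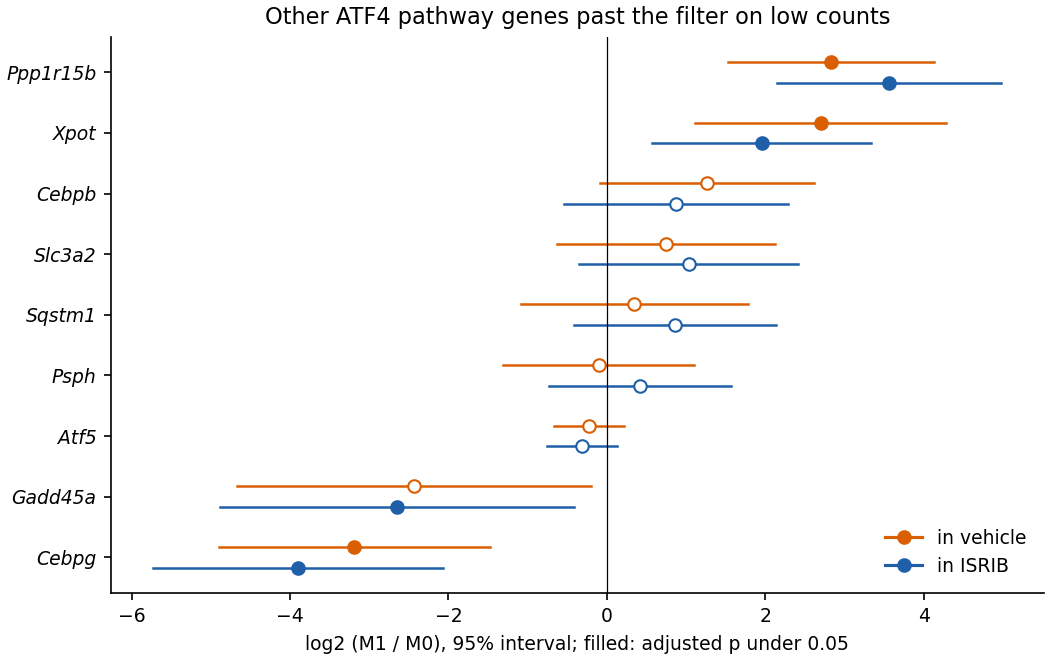
Log2 ratio of M1 to M0 (horizontal axis) with 95% intervals for the 9 further ATF4 pathway genes with enough reads to be tested, in vehicle and in ISRIB. Filled points passed an edgeR adjusted p of 0.05. Ppp1r15b and Xpot lie above 0 and Cebpg below 0 in both treatments, and the intervals of Slc3a2, Sqstm1, Psph, Atf5 and Cebpb include 0.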

How the data were processed

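Polyadenylated RNA of 12 libraries (4 groups of 3) was sequenced from strand-specific TruSeq libraries, per the labels' protocols. The authors deposited whole-number counts per gene symbol and, as a second table, normalized log2 values. Each library's deposited log2 values were recovered from its counts by scaling with a single factor and adding 1 before the log (relative deviation at most 3.56e-09). The submitters' processing notes name FastQC, HTSeq, DESeq2 and mm10, without roles or versions. Aligner, annotation and strand setting are not given in the sources used here.

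The tests used edgeR 4.0.16 under R 4.3.3 (TMM, filterByExpr with a minimum count of 10 and total of 15, quasi-likelihood test, a mean per group over all 12 libraries). The 2356 genes kept held 97.6% of counts, and p-values were adjusted over them by Benjamini-Hochberg with a threshold of 0.05. Standard errors are those implied by the test statistic, and intervals are 95%. Ratios of sparse counts have exact intervals that cover counting error only. The pool is the log2 of summed CPM, with its error from the spread within groups (8 degrees of freedom). The fits were tested on simulated data. Members and lists were chosen with earlier results of these data known. Named genes were the members, their exon-overlapping neighbours, list genes past the filter, and the 3 genes most correlated with each tested member. Alternatives were the DESeq2 1.42.0 Wald test, its size factors, limma 3.58.1 on the deposited log2 values, no filter, a replicate block, the compared groups only, and leaving out each library. Halved counts were added after the data were seen.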

Additional observations from a re-analysis of the deposited data

How the results depend on the processing

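The number of members called kept its value in every setting run (1 in vehicle M1 against M0, 0 elsewhere), except with halved counts, where 1 was called in ISRIB M1 against M0. Leaving out each library gave 1 to 1 and 0 to 0. Without Ddit3 the pooled M1 minus M0 difference was 1.59 in vehicle and 1.47 in ISRIB, and the detectable change under ISRIB 3.93-fold in M1, 3.93-fold in M0 and 2.63-fold over both states. With only the 6 members that have no exon overlap these were 2.47 and 1.47, and 9.46-fold, 9.46-fold and 4.90-fold, with pooled differences of 0.71 for ISRIB in M0, 0.21 over both states and -0.996 for the interaction. Fewer reads remain in both sums. With a library left out, the detectable change ran from 2.05 to 2.37-fold in M1, 2.16 to 2.36 in M0 and 1.62 to 1.78 over both states, and the pooled ISRIB difference from -0.48 to 0.00, -0.32 to 0.07 and -0.30 to -0.05.

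Single-gene directions turned only when a library was left out, and none belonged to a called result. For Ddit3 the ranges were -0.27 to 0.10 (ISRIB in M1), -0.15 to 0.13 (in M0), -0.16 to 0.026 (both states), -0.38 to 0.027 (M1 against M0, vehicle) and -0.28 to 0.15 (interaction). For Atf3 they were -0.11 to 0.72 (ISRIB in M0) and -0.20 to 0.22 (both states). The interaction ran from -0.075 to 0.44 for Mars and from -0.10 to 0.40 for Tulp2, and Sqstm1 in vehicle from -0.13 to 1.01. The cause was not tested.

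Samples with the same replicate number had correlations of their deviations from -0.06 to 0.113 (median 0.0214), over 0.1 in 2 of 18 pairs. Pairs with other replicate numbers ran from -0.108 to 0.0572 (median -0.00509), over 0.1 in 0 of 36. The labels give libraries with the same number consecutive codes and do not say what the number marks, and each such run holds 1 library per group, so the block is also the fit with the run as a term. With the replicate block the calls of members were the same, Atf3 in vehicle had a log2 fold change of 2.12 (edgeR adjusted p = 0.0114), the pooled ISRIB differences stayed at -0.23, -0.11 and -0.17, and their detectable changes were 2.23-fold, 2.23-fold and 1.76-fold. The small counts of the other 6 members limit what their intervals can show, and whether depth or strand assignment made them small was not tested.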
